A study of Mus musculus with 5 samples.

Results

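Mural cells, the pericytes and smooth muscle cells that wrap small vessels, were selected from single-cell RNA libraries of digested PyMT mouse mammary tumours by measured transcripts. A cell was taken as mural when it held at least 5 raw UMIs of Rgs5, at most 3 UMIs summed over the endothelial genes Pecam1, Cdh5, Emcn, Plvap and Egfl7, and fewer than 10 UMIs per 10000 of the keratin and adhesion genes Krt8, Krt18 and Epcam. A UMI (unique molecular identifier) marks 1 captured transcript. This rule found 159 of 15958 cells. Of 192 cells with at least 5 Rgs5 UMIs, 26 were removed by the endothelial limit and 7 by the keratin limit.

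PyMT mice carry the polyomavirus middle T oncogene and develop mammary tumours. The sources used here give neither the promoter that drives it nor the strain, age or number of the animals. The tumours were digested, enriched for viable cells and loaded on 10x Genomics single cell 3′ v2 or on BD Rhapsody, which both tag each transcript at its 3′ end with a cell barcode. The 5 libraries are 2 fresh 10x libraries (fresh 10x 1 and 2), 1 10x library whose title gives 24 h (stored 10x), and 2 BD Rhapsody libraries titled fresh (BD 1 and BD 2). For the stored material the digest stood at 4 °C overnight, and flow cytometry was used to see that at least 20% of viability had been lost. The second BD library is titled fresh but its deposited files are named for 24 h, so BD 2 formed a separate group and is set beside the others without a storage comparison. Nothing in the labels says that the libraries came from separate animals, so p-values measure only the spread between these libraries.

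Pericytes sit inside the basement membrane of capillaries and venules, while vascular smooth muscle cells circle arterioles and larger veins. Both are recruited by PDGF-BB from endothelial cells acting on the receptor encoded by Pdgfrb, and both depend on NOTCH3, which receives Jagged and Delta ligands from the neighbouring endothelium. Smooth muscle cells and some pericytes hold actin and myosin filaments whose tension sets vessel diameter, and pericytes carry an ATP-sensitive potassium channel, built from the proteins of Kcnj8 and Abcc9, that relaxes them. In tumours, mural cover is often patchy and loosely attached.

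Summed over mural cells, the libraries held 309557, 339393, 98461, 53872 and 28023 UMIs in fresh 10x 1, fresh 10x 2, stored 10x, BD 1 and BD 2, and the median mural cell held between 3746 and 5264 UMIs. The median mitochondrial share of a mural cell was 5.74% to 6.32% on 10x, 11.2% in BD 1 and 15.7% in BD 2. BD 1 and BD 2 shared 24 barcodes, stored 10x shared 5 with fresh 10x 2 and 1 with fresh 10x 1, and the fresh pair shared 1; none belonged to a mural cell. Levels below are UMIs per 10000 UMIs of all mural cells of a library, in the order fresh 10x 1, fresh 10x 2, stored 10x, BD 1, BD 2.

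The name of the population was checked against 6 markers. Rgs5, which encodes a brake on G-protein signalling, chose the cells and is given as a description: 82.9, 91.5, 80.7, 165 and 143 UMIs per 10000. Fibroblasts, endothelial cells and macrophages held at most 0.0572. They were selected by their own genes and by at most 1 Rgs5 UMI per cell, so this gap was set by selection on both sides. Notch3, the mural Notch receptor, stood at 4.94, 5.01, 7.92, 15.2 and 21.1. Its highest fibroblast, endothelial or macrophage level was 0.154, so the classes did not overlap in any library. Des, the intermediate filament desmin, stood at 5.30, 7.25, 5.08, 2.41 and 2.85 against at most 0.0317 in fibroblasts and 0 in endothelial cells. Myh11, the smooth muscle myosin heavy chain, stood at 3.0, 4.07, 4.06, 2.04 and 2.50. Cspg4, the NG2 proteoglycan of pericytes, was low at 1.36, 1.30, 1.02, 1.67 and 1.07, and fibroblasts reached 0.369. Mcam, the adhesion molecule CD146, stood at 3.81, 5.04, 3.86, 9.47 and 1.43, and endothelial cells held about as much of it at 4.05, 4.82, 3.78, 5.44 and 2.64. Beside Rgs5, which is high by selection, Notch3, Des, Myh11 and Cspg4 were higher in mural cells than in fibroblasts and endothelial cells in every library, and Mcam separated them from fibroblasts but not from the endothelium.

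Shares of cells with a transcript were compared after each cell was thinned to 2000 UMIs, which left out cells with fewer and kept 53, 52, 21, 10 and 7 mural cells. Notch3 was found in 67.9%, 59.6%, 76.2%, 90% and 85.7% of them, and in at most 1.16% of macrophages, a class that should lack it. Des was found in 60.4%, 65.4%, 66.7%, 40% and 14.3% of mural cells and in no thinned macrophage. Myh11 was found in 26.4%, 28.8%, 28.6%, 30% and 14.3%, again in no macrophage. Without thinning, Notch3 was found in 86.7%, 84.2%, 96.0%, 100% and 100% of all mural cells, and Myh11 in 43.3%, 50.9%, 56.0%, 50% and 57.1%. Median macrophage depth was 6685, 5507.5, 5341, 12162.5 and 8270 UMIs.

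The lower limit on Rgs5 fell in a thinly filled range. Only 8 cells met the other limits with 3 to 4 Rgs5 UMIs, just outside, and they held 16.6 Acta2, 3.73 Myh11, 1.12 Higd1b and 21.8 Dcn UMIs per 10000, Dcn being the fibroblast proteoglycan decorin. The 9 cells just inside, with 5 to 9 Rgs5 UMIs, held 135 Acta2, 10.9 Myh11, 5.29 Higd1b and no Dcn UMIs per 10000. A single cell of fresh 10x 2 with 433 Acta2 UMIs gave most of this Acta2 and all of this Myh11, and without it the other 8 held 12.9 Acta2, 0 Myh11 and 8.62 Higd1b UMIs per 10000. Cells with 10 to 49 Rgs5 UMIs numbered 82 and cells with 50 or more numbered 68. A further deposited matrix that pools fresh 10x cells held 110 mural cells among 4000; 39 of them carry barcodes of the 2 fresh libraries' own matrices and 71 do not, and the latter were used only to describe variation among cells.

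**Figure D1:**
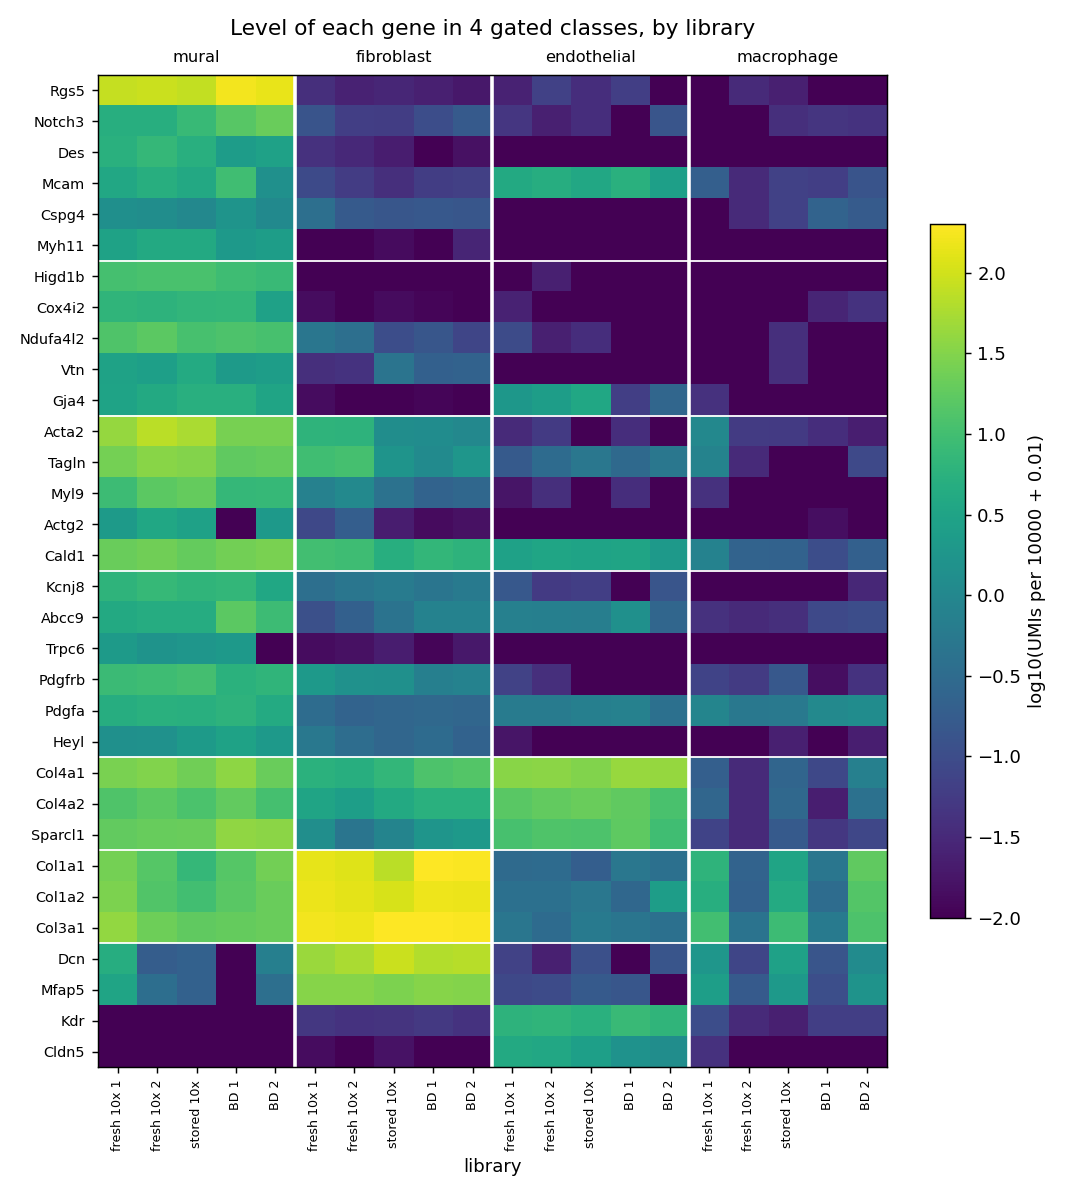
Levels of 32 genes (UMIs per 10000, log colour scale) in mural, fibroblast, endothelial and macrophage cells of the 5 libraries; each column is 1 class of 1 library. The mural columns alone hold Higd1b, Myh11 and Des at more than trace levels, while Mcam is shared with endothelial cells and the fibrillar collagens with fibroblasts.

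What mural cells transcribe beyond their selecting gene was tested within libraries. UMIs were summed per library and class and compared with edgeR's quasi-likelihood test with Benjamini-Hochberg adjustment over all genes, with the library as a block and a threshold of 0.05. The 4 libraries with at least 10 cells of each class entered, so BD 2 did not. Against fibroblasts 10122 genes were tested, of which 8.54% were higher and 17.3% lower in mural cells, with a median log2 difference over all genes of -0.13. Against endothelial cells 6847 genes were tested, 15.8% higher and 17.8% lower, with a median of -0.03. List counts against these classes are to be read beside these shares, and a count near them is no result about a list. Cells had been sorted into classes on some of these genes, so every gene that entered a selection was left out of both comparisons. A gene that travels with a selecting gene had to differ, and the gene lists below were drawn up with earlier results of these data known, so their counts describe the cells and are not independent evidence of direction. A list is counted over its members that passed the filter on low counts and took no part in selection, which against fibroblasts were 27 of 30 pericyte, 21 of 25 contractile, 28 of 31 vasoactive, 12 of 19 Notch, 19 of 23 PDGF, VEGF and angiopoietin, 20 of 21 basement membrane and 26 of 28 fibrillar matrix genes.

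Among the genes with the largest differences from fibroblasts were respiratory chain proteins, a gap junction protein and an odorant receptor. Higd1b, a mitochondrial protein of the hypoxia-inducible domain family, stood at 10.7, 11.5, 11.6, 9.10 and 8.21 UMIs per 10000, with 0 UMIs in the fibroblasts of every library. That is at least 5164-fold higher over the 4 libraries, taking 3 UMIs over the group as the limit for a count of 0. Cox4i2, the hypoxia-responsive isoform of a cytochrome c oxidase subunit, stood at 6.59, 6.13, 6.70, 7.05 and 2.85 against 3 fibroblast UMIs in all, a ratio of 3011 (exact 95% interval 1024 to 14647, counting error only). Ndufa4l2, another hypoxia-responsive partner of the respiratory chain, stood at 13.0, 16.2, 11.2, 12.6 and 11.1. Fibroblasts held no more than 0.476, a log2 difference of 5.50 (SE 0.22, adjusted p = 5.95e-42 by edgeR's quasi-likelihood test). Gja4, the gap junction protein connexin 37, stood at 3.13, 4.07, 5.08, 5.20 and 3.21 against 2 fibroblast UMIs, a ratio of 2739 (752 to 22719). The odorant receptor gene Olfr558 was at 1.78, 2.39, 1.52, 3.71 and 0.714 and had no fibroblast UMI, which makes it at least 998-fold higher.

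Several less familiar transcripts followed the same pattern. H2-M9, a nonclassical histocompatibility gene, stood at 1.97, 2.62, 3.05, 6.50 and 2.14, with 1 UMI in all fibroblasts. Gm13889, a short predicted gene, stood at 13.5, 12.1, 16.6, 13.2 and 17.8, a log2 difference of 8.47 from fibroblasts (SE 0.28, adjusted p = 1.92e-49). Serpina1b stood at 4.30, 6.78, 7.11, 7.43 and 3.57, but it belongs to a family of near-identical antitrypsin copies, so its reads could have been split among them and its level is uncertain. At the other end stood genes of fibroblasts: C3, the complement component, had no mural UMI and was at least 297-fold lower, the secreted Wnt modulator Sfrp4 at least 111-fold lower and Reg1 at least 78.2-fold lower. None of these 3 was a selecting gene.

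Of 27 genes tested on a pericyte list, 23 were higher than in fibroblasts and 3 were lower (8.54% and 17.3% of all genes tested), with a median log2 difference of 2.82. The 3 lower ones, often named as pericyte genes, were Postn (periostin, -2.51, SE 0.17), Anpep (the surface peptidase CD13, -1.25, SE 0.27) and Cd248 (endosialin, -0.67, SE 0.19, lost as a call without the stored 10x library or without BD 1). Against endothelial cells 26 of 27 were higher and none lower (15.8% and 17.8% of all genes), with a median of 7.01, or 6.92 when genes with a group at 0 are set to their bound. The single gene not called was Mcam (log2 difference 0.15, SE 0.17, adjusted p = 0.564). Vtn, the adhesive glycoprotein vitronectin, stood at 3.04, 2.71, 4.16, 2.23 and 2.50 and was at least 276-fold higher than in endothelium.

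Contractile genes were higher in mural cells than in both neighbours almost throughout. Acta2, smooth muscle alpha actin, stood at 41.1, 70.9, 56.6, 25.8 and 26.1 UMIs per 10000 in mural cells and at 6.19, 5.95, 1.25, 1.21 and 0.998 in fibroblasts. The lowest mural value was thus above the highest fibroblast value, and the log2 difference was 3.70 (SE 0.20, adjusted p = 1.93e-31 by edgeR's quasi-likelihood test). Tagln, the actin-binding protein transgelin, stood at 24.9, 34.7, 31.2, 17.6 and 18.9 against 1.14 to 10.6 in fibroblasts, a log2 difference of 2.43 (SE 0.22, adjusted p = 7.4e-18). Myl9, the regulatory myosin light chain, stood at 9.01, 16.3, 19.2, 7.43 and 7.49, a log2 difference of 4.15 (SE 0.21) from fibroblasts and 9.45 (SE 0.32) from endothelial cells. Tpm2, beta tropomyosin, stood at 13.3, 20.4, 14.5, 5.75 and 4.28. Cald1, caldesmon, was the least selective of those named, at 20.5, 23.7, 19.2, 24.7 and 26.8, and 1.20 (SE 0.16) above fibroblasts on the log2 scale. Of 21 contractile genes tested, 19 were higher than in fibroblasts and none lower (8.54% and 17.3% of all genes). The median log2 difference was 4.15. Against endothelial cells 19 were higher (15.8% of all genes), with a median of 6.58, or 5.05 at the bounds. The 1 lower gene was Smtn, smoothelin (-1.53, SE 0.37). For the intermediate filament Des the endothelial sum was 0, so the difference is at least 546-fold, and for Myh11 at least 326-fold.

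Many contractile genes are switched on by serum response factor with its partner myocardin, which bind a motif called the CArG box. The promoters of the contractile genes were therefore read for it, in the 250 bases before each start site given by RefSeq on GRCm38.p6, the assembly that mm10 names. The box has the same form on both strands, so a search of 1 strand covers both. A near box was allowed 1 C or G among its central A and T letters. Of 21 genes of the contractile list with a promoter in the table, 4 held an exact box (19.0%), namely Myl9, Myl6, Srf and Ldb3. With Acta2 and Mrtfa, 6 held an exact or near box (28.6%). Srf encodes serum response factor itself and Mrtfa a relative of myocardin, so these are regulators on the list and not contractile proteins. Over all 27018 genes in the table, 1.62% held an exact box and 9.77% an exact or near box. Tagln, Myh11, Actg2 and Myocd had no entry. Tpm1 and Tpm2, which varied with Acta2 from cell to cell as Myl9 did, held neither an exact nor a near box. The promoters below are shown to let the boxes be seen in 3 contractile genes that hold one, beside Kcnj8, a channel gene of the same cells that holds none. Capitals mark an exact or near box, and each sequence runs 5′ to 3′ on the strand of its gene. A match is a description of letters only.
Acta2, chr19:34255374-34255623, minus strand, near boxes starting 84 and 34 bases before the start: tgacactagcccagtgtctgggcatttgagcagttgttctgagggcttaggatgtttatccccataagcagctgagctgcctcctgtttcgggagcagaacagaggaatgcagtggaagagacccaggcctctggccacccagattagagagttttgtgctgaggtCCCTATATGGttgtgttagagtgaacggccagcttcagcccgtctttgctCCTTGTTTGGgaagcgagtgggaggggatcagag
Myl9, chr2:156775214-156775463, plus strand, exact box starting 161 and near box 99 bases before the start: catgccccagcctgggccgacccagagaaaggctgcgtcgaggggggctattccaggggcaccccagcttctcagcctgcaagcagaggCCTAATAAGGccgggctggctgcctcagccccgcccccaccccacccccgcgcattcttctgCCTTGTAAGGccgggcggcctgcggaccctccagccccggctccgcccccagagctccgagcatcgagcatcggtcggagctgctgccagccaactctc
Myl6, second start site, chr10:128493010-128493259, minus strand, exact box starting 50 bases before the start: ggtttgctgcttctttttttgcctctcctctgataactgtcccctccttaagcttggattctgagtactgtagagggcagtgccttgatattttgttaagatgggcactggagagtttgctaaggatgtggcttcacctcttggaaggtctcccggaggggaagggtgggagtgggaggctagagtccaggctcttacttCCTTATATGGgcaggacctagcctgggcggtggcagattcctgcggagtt
Kcnj8, chr6:142571615-142571864, minus strand, no box in this window: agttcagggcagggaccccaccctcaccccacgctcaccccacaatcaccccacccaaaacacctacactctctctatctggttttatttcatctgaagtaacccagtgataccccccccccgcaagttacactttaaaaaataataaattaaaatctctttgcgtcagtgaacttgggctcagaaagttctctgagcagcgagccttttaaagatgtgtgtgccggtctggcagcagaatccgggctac

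Genes that tune vessel tone were also mostly higher in mural cells. Kcnj8, the pore of the ATP-sensitive potassium channel, stood at 6.17, 7.48, 6.40, 7.05 and 3.57 UMIs per 10000, with fibroblasts between 0.357 and 0.604 and endothelial cells at most 0.146. Its log2 difference was 3.53 (SE 0.19, adjusted p = 6.12e-32 by edgeR's quasi-likelihood test) from fibroblasts and 6.33 (SE 0.30, adjusted p = 2.14e-16) from endothelial cells. Abcc9, the sulphonylurea receptor that completes the channel, stood at 4.04, 4.66, 4.67, 16.1 and 8.92, and was 4.01 (SE 0.20) and 2.82 (SE 0.19) higher. Trpc6, a receptor-operated calcium channel, stood at 2.16, 1.59, 1.83, 2.04 and 0, at least 173-fold above the endothelial sum of 0. Rgs16, a relative of Rgs5, stood at 4.55, 3.51, 5.18, 12.4 and 6.78. Gng11, a G-protein gamma subunit, was shared with the endothelium: 13.6, 16.0, 15.9, 7.98 and 9.63 in mural cells against 21.6, 20.9, 18.2, 14 and 10.5, with the endothelial value above the mural one in every library (-0.53, SE 0.15; the call was lost without fresh 10x 1). Of 28 genes of vasoactive signalling, 23 were higher and 2 (Ptger3 and Kcnma1) lower than in fibroblasts (8.54% and 17.3% of all genes). The median log2 difference was 2.42. Against endothelial cells 19 of 24 were higher and 2 (Ednrb and Gng11) lower (15.8% and 17.8% of all genes). The median was 6.51, or 6.02 at the bounds.

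The ligands and receptors of the mural-endothelial exchange were split between the partners. Pdgfrb stood at 8.59, 9.08, 10.3, 5.57 and 6.42 in mural cells, at 0.695 to 2.02 in fibroblasts and at no more than 0.0613 in endothelial cells. Its log2 difference was 2.27 (SE 0.18) from fibroblasts and 7.85 (SE 0.32) from endothelium. Mural cells also held a PDGF ligand of their own, Pdgfa, at 4.75, 5.30, 5.18, 5.94 and 4.28, which was 3.96 (SE 0.20) above fibroblasts and 2.97 (SE 0.19) above endothelial cells. Epas1, the hypoxia-inducible factor HIF-2 alpha, stood at 4.07, 3.62, 4.47, 6.50 and 8.21, well above fibroblasts (4.03, SE 0.20) and slightly above endothelium (0.48, SE 0.18, adjusted p = 0.0328). That last call was lost without fresh 10x 1 and without the stored library. Over the PDGF, VEGF and angiopoietin list 9 of 19 were higher and 6 lower than in fibroblasts (8.54% and 17.3% of all genes, median 0.32). Against endothelium 7 of 17 were higher and 10 lower (15.8% and 17.8% of all genes, median -1.59). Kdr, the main VEGF receptor, had no UMI in a mural cell and was at least 169-fold lower than in endothelial cells.

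Notch genes divided in the same way. Beside Notch3, mural cells held the Notch target Heyl at 1.45, 1.5, 2.23, 2.97 and 2.14, 2.05 (SE 0.23) above fibroblasts on the log2 scale, while all endothelial cells together had 1 UMI. The ligand gene Jag1 stood at 1.13, 1.27, 0.914, 2.23 and 1.07, above fibroblasts (1.41, SE 0.25) and endothelium (1.27, SE 0.24). Hes1, another target, was at 2.58, 1.77, 3.96, 4.08 and 3.21 and lay between the classes, 0.73 (SE 0.19) above fibroblasts and 0.71 below endothelium (log2 difference -0.71, SE 0.18). Of 12 Notch genes 7 were higher and 1 (Rbpj) lower than in fibroblasts, with a median of 1.07. Of 14 tested against endothelium 4 (Notch3, Jag1, Hey2 and Heyl) were higher and 8 lower, with a median of -1.20. On the TGF-beta list 3 of 19 were higher and 6 lower than in fibroblasts (8.54% and 17.3% of all genes, median -0.32). Against endothelium 3 of 18 were higher, near the 15.8% of all genes, and 10 were lower, against 17.8% (median -0.70).

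Basement membrane transcripts of mural cells summed to 149, 154, 136, 215 and 149 UMIs per 10000, close to endothelial cells at 154, 171, 173, 211 and 154, with fibroblasts at 183 to 252. Col4a1, a chain of basement membrane collagen, stood at 27.3, 31.1, 23.1, 36.6 and 20.7 UMIs per 10000, between fibroblasts at 5.51 to 13.9 and endothelial cells at 31.0 to 43.9. It was 1.72 (SE 0.17, adjusted p = 2.18e-15 by edgeR's quasi-likelihood test) above fibroblasts and 0.34 below endothelium (log2 difference -0.34, SE 0.13, adjusted p = 0.0361). The second call was lost when fresh 10x 1, fresh 10x 2 or the stored library was left out. Sparcl1, a secreted matricellular protein, stood at 18.2, 20.3, 21.0, 39.2 and 35.7, above both fibroblasts (4.22, SE 0.20) and endothelium (0.78, SE 0.13). Sparc was lower than in fibroblasts (-1.59, SE 0.13) and not called against endothelium (-0.18, SE 0.12, adjusted p = 0.255). Basement membrane genes as a list were 7 of 20 higher and 11 lower than in fibroblasts (8.54% and 17.3% of all genes, median -0.75). Against endothelium 3 of 17 were higher, near the 15.8% of all genes, and 8 were lower, against 17.8% (median -0.31).

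Fibrillar collagens formed a step between the 3 classes. Col3a1, a chain of interstitial collagen, stood at 40.3, 22.6, 17.7, 19.5 and 21.1 in mural cells, at 158 to 209 in fibroblasts and at 0.315 to 0.570 in endothelial cells. Its log2 difference was -3.25 (SE 0.16) from fibroblasts and 5.80 (SE 0.22) from endothelium. Col1a1 stood at 25.2, 14.4, 7.21, 14.5 and 24.6 against 72.8 to 194 in fibroblasts. Of 26 fibrillar matrix genes 23 were lower than in fibroblasts and 1 higher, with a median of -2.28; the higher one was Col5a3, a minor fibril collagen (1.00, SE 0.18). All 26 tested were higher than in endothelial cells, with a median of 4.87, or 4.66 at the bounds. Of all genes, 17.3% were lower than in fibroblasts and 15.8% higher than in endothelial cells. In fresh 10x 1, 2 mural cells held more than 3 UMIs of Dcn, Lum and Pdgfra. Without them Col1a1 was 9.16 in place of 25.2, Col1a2 10.2 in place of 28.3 and Col3a1 22.5 in place of 40.3 UMIs per 10000 in that library. Bgn (18.0 in place of 21.3) and Gsn (11.4 in place of 10.4), a proteoglycan and an actin-severing protein that fibroblasts also make, moved less.

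Contacts and signals to other cells were mixed. Gjc1, connexin 45, stood at 5.69, 5.98, 5.28, 9.28 and 1.07, 4.36 (SE 0.20) above fibroblasts and 4.54 (SE 0.24) above endothelium. Itga1, an integrin subunit for basement membrane collagen and laminin, stood at 9.50, 9.43, 8.23, 6.50 and 5.35, 3.31 (SE 0.19) and 3.89 (SE 0.20) higher. Esam, an endothelial junction protein, stood at 3.23, 3.01, 3.35, 3.71 and 1.78 in mural cells, far above fibroblasts (8.38, SE 0.32) though below endothelium (-1.32, SE 0.17). Of all genes, 8.54% were higher and 17.3% lower than in fibroblasts, and 15.8% and 17.8% than in endothelium. Adhesion genes as a list split 9 higher and 12 lower of 22 against fibroblasts (median -0.74) and 9 and 9 of 19 against endothelium (median 0.15). Among chemokines and cytokines 4 of 18 were higher and 12 lower than in fibroblasts (median -1.85, or -1.52 at the bounds), and 6 of 14 were higher and 4 lower than in endothelium (median 0.22). Il34, a ligand of the macrophage receptor CSF1R, stood at 2.81, 2.83, 2.54, 1.11 and 2.85 against 0.354 to 1.60 in fibroblasts and 2 UMIs in all endothelial cells. Il6st, the shared receptor chain gp130, was higher than in both (0.96, SE 0.18, and 0.97, SE 0.17).

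Proliferation genes were present and uneven between libraries. Mki67, the proliferation antigen, stood at 1.45, 1.18, 0.406, 0 and 0 UMIs per 10000, so both fresh 10x libraries were above the other 3. It was called higher than in fibroblasts (1.68, SE 0.31, adjusted p = 3.77e-06 by edgeR's quasi-likelihood test), and the call was lost without fresh 10x 1 (0.98, adjusted p = 0.0591) and with DESeq2 (adjusted p = 0.254). Ccnd1, cyclin D1, was 3.15 (SE 0.28) above fibroblasts and lower than in endothelium (-0.99, SE 0.20). Of 20 cell cycle genes 11 were higher and none lower than in fibroblasts (median 0.93; DESeq2 called 3), and 1 was higher and 1 lower of 19 against endothelium (median 0.30). Of 13 mitochondrially encoded genes 5 were higher than in fibroblasts (median 0.37) and 3 lower than in endothelium (median -0.21). The remaining lists were small and mixed, and several of their counts lay near the shares over all genes. Those shares were 8.54% higher and 17.3% lower against fibroblasts, and 15.8% and 17.8% against endothelium. Hypoxia and glycolysis genes had 0 higher and 2 lower of 17 against fibroblasts (median -0.25) and 3 higher and 4 lower of 13 against endothelium (median -0.22). The interferon list had 1 higher and 3 lower of 17 (median -0.22) and 1 higher and 4 lower of 14 (median -0.43). The metallothionein and stress list had 2 higher and 7 lower of 16 (median -0.38) and 3 and 3 of 15 (median -0.24). The immediate early list also holds the heat shock gene Hspa1a. It split 5 higher and 4 lower of 10 against fibroblasts (median 0.34) and 2 and 4 of 10 against endothelium (median -0.26).

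**Figure D2:**
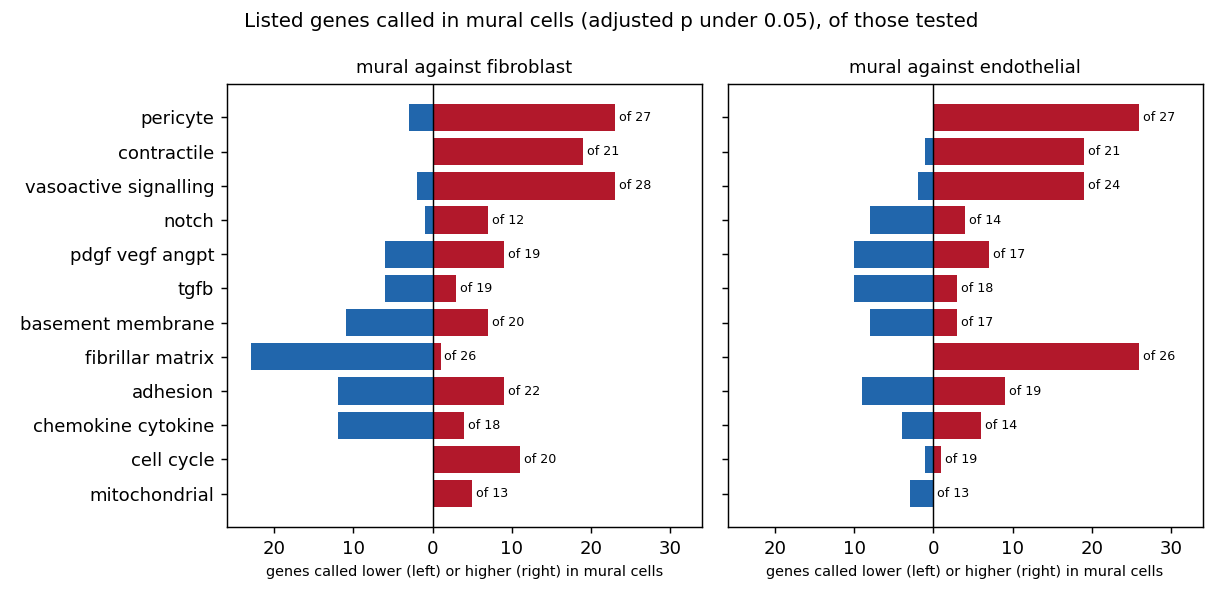
Number of listed genes called higher or lower in mural cells than in fibroblasts and than in endothelial cells, by gene list (edgeR's quasi-likelihood test, adjusted p under 0.05, 4 libraries). Contractile genes were higher in 19 of 21 against both classes, while fibrillar matrix genes were lower in 23 of 26 against fibroblasts and higher in 26 of 26 against endothelial cells.

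Transcripts of other cell types in the mural sums were low for most lists and not for that of fat cells. A list of fibroblast markers summed to 24.8, 9.28, 11.2, 4.83 and 6.07 UMIs per 10000, against 165 to 255 in fibroblasts. Endothelial markers summed to 5.0 to 7.80 against 78.6 to 115, and macrophage markers to 0.186 to 1.43 against 381 to 767. Selecting genes were kept in these sums: 3 of 14 fibroblast, 5 of 15 endothelial and 3 of 9 macrophage genes. The epithelial list below holds 3 among its 12. Part of each of these gaps was therefore set by the selection. Fat cell genes summed to 22.9, 28.6, 11.1, 10.4 and 12.1 against 38.1, 43.7, 49.4, 25.2 and 13.1 in endothelial cells, nearly all of it Fabp4 and Lpl, with Adipoq, Plin1 and Cidec at 0. Myoepithelial genes summed to 2.26, 2.50, 2.64, 4.64 and 6.78, nearly all of it Cnn3, with Krt5 and 5 more of the 8 at 0. Lymphocyte genes summed to 0.186 to 1.43, with Cd3e, Cd3d, Cd3g, Cd79a and Ms4a1 at 0, while the T cell receptor gene Trac, at 0.291, 0.354, 0.203, 0.186 and 1.43, was called higher than in fibroblasts (3.03, SE 0.60) and endothelial cells (4.07, SE 0.76). Epithelial markers summed to 6.91, 7.31, 16.5, 16.0 and 7.85, close to macrophages of the same libraries at 8.02, 9.59, 20.2, 11.8 and 8.12 and far below epithelial cells at 334 to 401. The part these transcripts have in the comparisons was not tested beyond leaving out the cells that held more than 3 such UMIs.

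Contractile genes were among those that differed most between mural cells of 1 library. Variance over mean was taken for 510 genes after thinning cells to 2000 UMIs, where counting alone gives 1, and its median over genes was 1.25. Averaged over the 2 fresh 10x libraries, Acta2 had a ratio of 13.3 (7.21 and 19.5) and Tagln 11.4 (9.32 and 13.5). The pooled fresh matrix held 66 thinned mural cells whose barcodes were in neither fresh library's own matrix. In them the ratios were 11.4 for Acta2 and 13.1 for Tagln. The pool was read as drawn from both fresh 10x samples, so these cells are not a further replicate. Higher still were Mgp, matrix Gla protein, at 17.4 and the nuclear RNA Malat1 at 15.8. The other genes among the 15 most variable were Col1a1, Col1a2, Col3a1, the immediate early genes Fos, Jun and Junb, Actb, Tmsb4x, Ctgf, Tpm1 and Crip1. The Col1a1 ratio of 10.1 came from fresh 10x 1 (17.0, against 3.24 in fresh 10x 2), and it was 1.80 there without the 2 cells holding fibroblast transcripts. Without those cells the ratios in fresh 10x 1 also went from 14.7 to 2.51 for Col1a2 and from 7.21 to 2.02 for Col3a1.

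Acta2 ranged from none to abundant within each library. Thinned cells held 0 to 23 Acta2 UMIs with a median of 4 in fresh 10x 1, 0 to 57 with a median of 5 in fresh 10x 2, and 0 to 38 with a median of 7 in stored 10x. Cells with no Acta2 UMI numbered 8 of 53, 12 of 52 and 4 of 21. In BD 1 the range was 0 to 15 with a median of 2.5, and in BD 2 0 to 14 with a median of 1.

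Other contractile genes varied with Acta2 from cell to cell, and the potassium channel genes varied the other way. The rank correlations that follow are across thinned cells of fresh 10x 1, fresh 10x 2, stored 10x and the 66 further pooled cells (53, 52, 21 and 66 cells). Cells of a library are not replicates and all share the same total, so the values are a description with no test. The pooled cells were read as coming from the same fresh samples and are not an independent set. Spearman's rho between Acta2 and Tagln was 0.86, 0.64, 0.85 and 0.82, and between Acta2 and Tpm2 0.68, 0.76, 0.74 and 0.75. With Myl9 it was 0.66, 0.66, 0.66 and 0.63, and with Myh11, a sparser transcript, 0.45, 0.46, 0.38 and 0.42. Between Acta2 and the sum of Kcnj8 and Abcc9 it was negative in all 4 sets, at -0.46, -0.42, -0.22 and -0.45, and between Tagln and that sum it was -0.55, -0.61, -0.40 and -0.49. Acta2 was also negatively ranked with Pdgfrb (-0.22, -0.49, -0.62 and -0.32) and with Cygb, cytoglobin (-0.60, -0.37, -0.41 and -0.21). Its rank with the selecting gene Rgs5 had no constant sign (0.24, -0.08, 0.10 and -0.30), nor had its rank with the glycolytic gene Gapdh (-0.10, 0.07, 0.26 and -0.13).

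**Figure D3:**
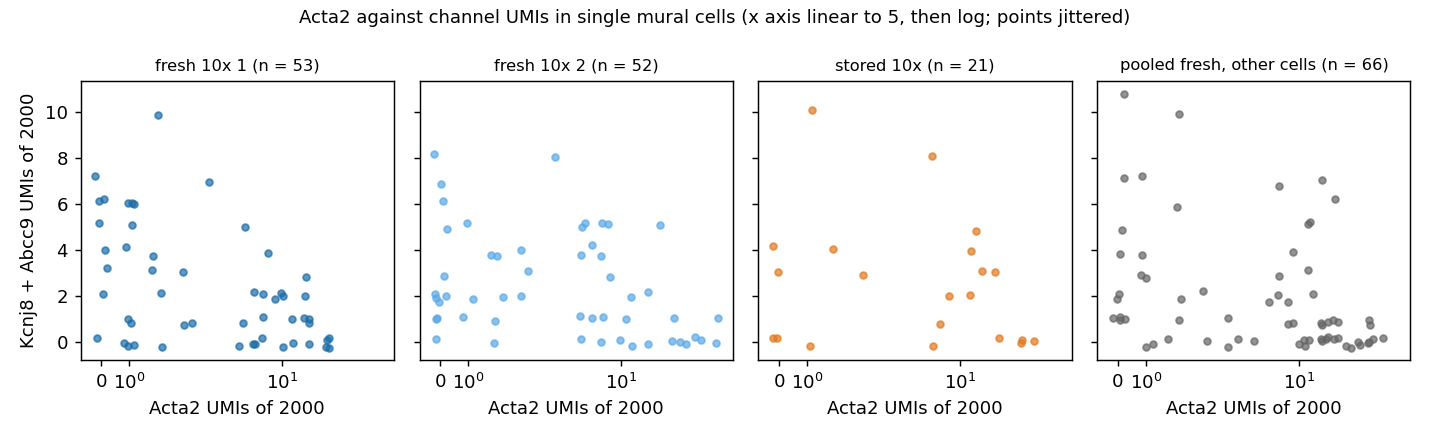
Acta2 against the sum of Kcnj8 and Abcc9 in single mural cells thinned to 2000 UMIs, in fresh 10x 1 (53 cells), fresh 10x 2 (52), stored 10x (21) and the further cells of the pooled fresh matrix (66); each point is 1 cell. The Spearman rho is negative in each panel, at -0.46, -0.42, -0.22 and -0.45.

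How many mural cells each library yielded was compared next, the question being what overnight storage and the platform did to the recovery of a scarce cell type. Mural cells numbered 60 in fresh 10x 1 (2.89% of its cells, exact 95% interval 2.21% to 3.71%) and 57 in fresh 10x 2 (2.96%, 2.25% to 3.82%). The stored 10x library had 25 of 4000 (0.625%, 0.405% to 0.921%), BD 1 had 10 of 3772 (0.265%, 0.127% to 0.487%) and BD 2 had 7 of 4186 (0.167%, 0.0673% to 0.344%). Both fresh 10x intervals lay above those of the other libraries; the intervals cover counting error only. Against the fresh 10x mean of 2.93% ± 0.0491 (SD, n = 2) the stored 10x share was 0.214 times as high, that of BD 1 0.0906 times and that of BD 2 0.0571 times. With 2 libraries against 1 no test between groups was made.

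The gap was also present at matched depth and among cells of low mitochondrial share. With every cell thinned to 2000 UMIs the shares were 2.79%, 2.79%, 0.545%, 0.318% and 0.144%, and with only cells of at most 20% mitochondrial UMIs 2.95%, 3.11%, 0.700%, 0.388% and 0.330%. As a share of cells that are not epithelial, mural cells were 9.27%, 12.3%, 2.86%, 1.01% and 0.631%. The selection itself did not act evenly. Of cells with at least 5 Rgs5 UMIs, the endothelial limit removed 8 of 70, 5 of 65, 4 of 30, 6 of 17 and 3 of 10. It thus took a larger part of such cells in the BD libraries, and its part in the gap was not tested. Endothelial cells, too, were a larger share in both fresh 10x libraries than in the other 3 (7.37%, 4.00%, 1.55%, 1.01% and 0.263% of cells), while fibroblasts were not (9.2%, 6.18%, 7.0%, 8.59% and 5.26%). With 1 library each for storage and for BD 1, the condition cannot be told apart from the single library that stands for it.

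**Figure D4:**
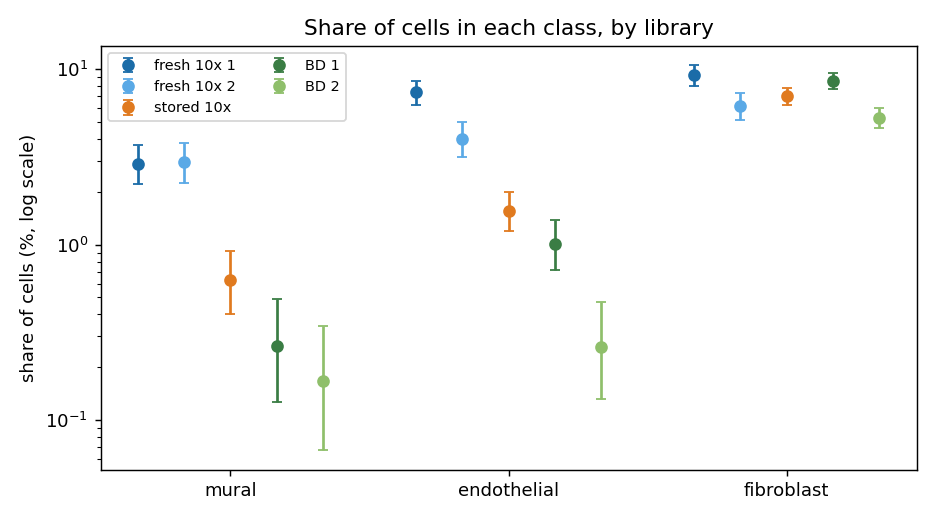
Share of cells in each class by library (percent of all deposited cells, log axis), with exact 95% binomial intervals. Mural cells are 2.89% and 2.96% in the fresh 10x libraries and 0.625%, 0.265% and 0.167% in stored 10x, BD 1 and BD 2, and fibroblasts lie between 5.26% and 9.2%.

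Within the mural cells, overnight storage was compared with fresh 10x over all genes. The stored cells held more transcripts of a few short ribosomal and mitochondrial genes and of 2 heat shock genes. Some of these, mt-Nd3 and Hspa1a among them, were also called higher in BD 1, which is titled fresh. No gene of the pericyte or contractile lists was called, where few genes were called at all. All 5 mural sums entered 1 edgeR quasi-likelihood fit, whose spread comes from the 2 fresh libraries with 1 residual degree of freedom. Of 3029 genes tested, 26 (0.858%) passed with Benjamini-Hochberg adjustment, 21 higher and 5 lower, with a median log2 difference over all genes of -0.03. DESeq2 called 1 gene, Rps28, and widening the selection to at least 3 Rgs5 UMIs left none called (264 at an unadjusted p under 0.05), so these calls rest on little replication. Without fresh 10x 1, with the BD libraries grouped to keep a spread, 5 genes were called, and without fresh 10x 2 only Rps28.

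Rps28, a small ribosomal protein gene, stood at 3.46 and 4.63 UMIs per 10000 in the fresh libraries and 26.1 in the stored one, a log2 difference of 2.70 (SE 0.21, adjusted p = 1.88e-05 by edgeR's quasi-likelihood test). Fibroblasts of the same libraries stood at 4.19, 5.76 and 27.4. Rpl38 stood at 6.72, 6.07 and 23.4 (1.89, SE 0.19) and Rps29 at 11.4, 11.7 and 32.7 (1.52, SE 0.17), the latter with 11.2, 12.1 and 41.7 in fibroblasts. The mitochondrial transcripts mt-Nd3 (1.70, SE 0.20) and mt-Atp8 (2.45, SE 0.38) were higher as well. In BD 1 mt-Nd3 was higher still, at 37.3 against a fresh 10x mean of 2.90 (3.53, SE 0.19), so its rise was not particular to the stored library. Hspa1a and Hspa1b, inducible HSP70 chaperones, stood at 5.62, 5.54 and 16.3, and at 1.55, 1.12 and 5.28, with log2 differences of 1.56 (SE 0.20, adjusted p = 0.00136) and 2.00 (SE 0.30, adjusted p = 0.00473). Lmcd1, a LIM-domain cofactor, stood at 0.905, 0.707 and 3.55 (2.15, SE 0.33). The milk protein gene Wfdc18, an epithelial transcript, stood at 0.969, 1.12 and 3.55 (1.77, SE 0.32), beside an epithelial marker sum of 6.91, 7.31 and 16.5 in mural cells and 8.02, 9.59 and 20.2 in macrophages.

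The 5 lower genes were Top2a, Pclaf, Col1a1, Fabp4 and Tmsb4x. Top2a and Pclaf belong to dividing cells: Top2a stood at 1.36 and 0.884 and at 0 in the stored library, at least 3.64-fold lower, and Pclaf at 1.32, 1.83 and 0.102, 1 UMI, a ratio of 15.6 (2.74 to 623). A Top2a UMI was found in 5 of 60 and 5 of 57 fresh mural cells and in 0 of 25 stored ones, which allows up to 12.0% of cells with a UMI and sets no limit on cells that express the gene. After thinning it was found in 3 of 53, 2 of 52 and 0 of 21 mural cells and in 0 of 46, 1 of 65 and 8 of 105 macrophages. Col1a1 was lower by 1.44 (SE 0.30, adjusted p = 0.0441), and without the 2 fresh cells holding fibroblast transcripts the log2 difference was -0.68 (adjusted p = 0.578). Fabp4, a fatty acid carrier of capillary endothelium and fat cells, stood at 20.0, 25.3 and 10.2 (-1.14, SE 0.22, adjusted p = 0.0219), and Tmsb4x, thymosin beta 4, at 95.7, 116 and 60.5 (-0.79, SE 0.14, adjusted p = 0.0152). None of the 5 changed sign, but Top2a lost its call in 7 of the 9 alternatives that tested it and each of the other 4 in 8 of 10. Of the higher genes named above, Wfdc18 lost its call in 7 of 10, mt-Atp8 in 6, and Hspa1b and Lmcd1 in 5. Hspa1a, mt-Nd3 and Rps29 lost theirs in 4, Rpl38 in 3 and Rps28 in 1.

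None of 26 pericyte genes and none of 17 contractile genes was called, against 0.858% of all genes tested. Of them 3 and 3 were at an unadjusted p under 0.05 and none was called by DESeq2, with median log2 differences of 0.11 and 0.03. No call was made either among 18 vasoactive, 15 basement membrane or 11 PDGF, VEGF and angiopoietin genes (0, 2 and 0 at an unadjusted p under 0.05, none by DESeq2). Their medians were 0.15, -0.13 and 0.23. At that share over all genes, lists of this size without a call give no result about their members. Acta2 at 56.6, Kcnj8 at 6.40 and Pdgfrb at 10.3 in the stored library were within or close to the fresh pair. With 25 stored cells and 1 stored library, small changes would not have been detected. On the cell cycle list 1 of 10 was called lower, with a median of -1.86, or -1.70 at the bounds.

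BD 1 differed from fresh 10x in many more genes, and here the platform, its chemistry and its annotation cannot be told apart from the cells. In the same fit 496 of 3029 genes (16.4%) were called, 208 higher and 288 lower, with a median log2 difference of -0.11. Counting against another size factor (RLE) left 391 calls, 187 higher and 204 lower. DESeq2 called 37 and gave no adjusted p for 2643 genes. Several contractile genes were lower in BD 1, and Notch3 and Abcc9 were higher. A single BD 1 cell held 40 Abcc9 UMIs, and the other BD 1 cells held at most 14 each. Acta2 stood at 25.8 against 41.1 and 70.9 (-1.27, SE 0.26, adjusted p = 0.00528 by edgeR's quasi-likelihood test), with 26.1 in BD 2. Tagln (-0.91, SE 0.22), Des (-1.53, SE 0.38) and Tpm2 (-1.70, SE 0.31) were lower too, and Actg2, gamma smooth muscle actin, had 0 UMIs in BD 1, at least 5.31-fold lower, though BD 2 held 2.14 per 10000. Of 17 contractile genes 2 were higher and 6 lower (median -0.25). The calls for Acta2, Tagln, Des and Actg2 were kept with BD 2 grouped with BD 1, and lost when fresh 10x 2 was left out as well (Acta2 then at -0.87, adjusted p = 0.0935); so grouped, Des also lost its call without fresh 10x 1. DESeq2 called none of Acta2, Tagln, Des and Tpm2. Notch3 was higher by 1.46 (SE 0.22, adjusted p = 0.000735) and Abcc9 by 1.74 (SE 0.24, adjusted p = 0.000304), whereas its channel partner Kcnj8 was not called (-0.11, SE 0.27, adjusted p = 0.827). DESeq2 called neither Notch3 (adjusted p = 0.187) nor Abcc9 (adjusted p = 0.176), and the Abcc9 call was also lost without fresh 10x 1 when the BD libraries were grouped (1.29, adjusted p = 0.102). On the pericyte list 8 of 26 were higher and 1 lower (median 0.08).

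Immediate early and mitochondrial transcripts were also higher in BD 1. Nr4a1, an immediate early nuclear receptor, stood at 18.7 against 1.58 and 0.648 (3.92, SE 0.36), Zfp36, an mRNA-decay factor, at 35.6 against 3.97 and 1.86 (3.46, SE 0.31), and Egr1 at 22.3 against 7.49 and 2.95 (1.94, SE 0.38). The Egr1 call was lost in 4 of 10 alternatives, among them DESeq2 (adjusted p = 0.0847) and leaving out fresh 10x 2 with the BD libraries grouped (1.22, adjusted p = 0.0576). In BD 1 fibroblasts Zfp36 stood at 12.7 against 1.84 and 1.48 in the fresh 10x ones. The immediate early list counted next also holds the heat shock gene Hspa1a, which was among its higher members. Over all genes tested 16.4% were called in either direction. Immediate early genes were higher in 5 of 10 (median 0.76), and mitochondrial genes in 10 of 12 with 2 lower (median 1.38), mt-Co1 among them at 275 against 56.2 and 58.3. Cell cycle genes were lower in 6 of 10 with none higher, and 6 of those 10 had a BD 1 sum of 0 (median -1.51 at the bounds). Their list summed to 24.9, 17.2, 7.41, 3.71 and 1.78 UMIs per 10000 over the 5 libraries. Stmn1, a microtubule regulator of dividing cells, was at least 4.98-fold lower. With 10 BD 1 cells, a sum of 0 bounds the level only loosely.

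**Figure D5:**
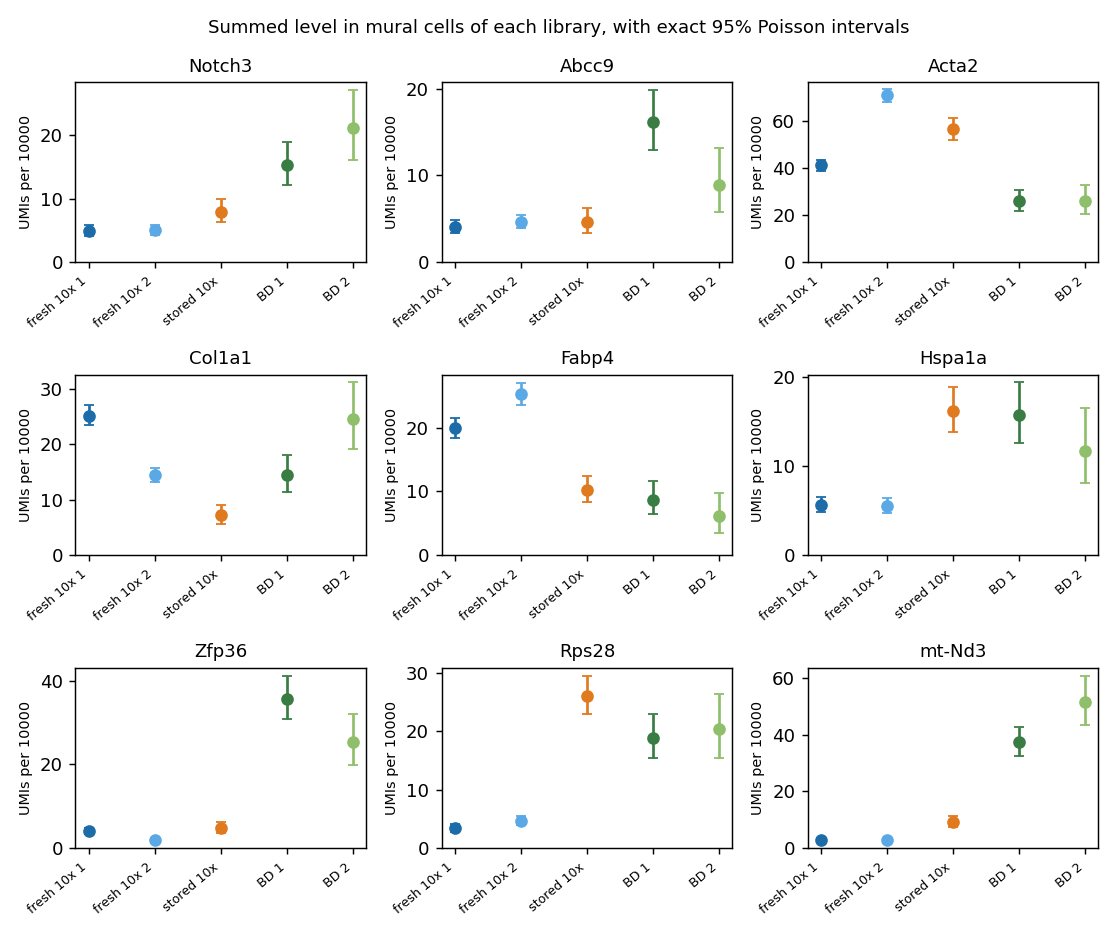
Levels of 9 genes in the mural cells of each library (UMIs per 10000, exact 95% Poisson intervals for counting error). Acta2 is lowest in BD 1 and BD 2 (25.8 and 26.1), Notch3 and Abcc9 are highest there, and Rps28 and Hspa1a are higher in stored 10x than in both fresh 10x libraries.

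Whether storage or platform moved a gene differently in mural cells than in their neighbours was tested directly. The contrast set the difference in mural cells against the mean difference in endothelial cells and fibroblasts, in 1 edgeR quasi-likelihood fit with library, class and their interaction. For storage 2 of 9663 genes (0.0207%) were called, of which DESeq2 called Fabp4 and not Hspa1a. Hspa1a was 2.38 (SE 0.36, adjusted p = 0.0499) further up in mural cells: it stood at 5.62, 5.54 and 16.3 in mural cells of fresh 10x 1, fresh 10x 2 and stored 10x, at 2.65, 2.25 and 1.45 in fibroblasts and at 4.46, 8.46 and 2.98 in endothelial cells. Fabp4 was 2.14 further down (log2 difference -2.14, SE 0.22, adjusted p = 0.00108): it stood at 20.0, 25.3 and 10.2 in mural cells, 37.8, 43.4 and 49.1 in endothelial cells and no more than 0.999 in fibroblasts. For BD 1 the single call of 9663 genes (0.0103%) was again Fabp4 (-2.0, SE 0.24, adjusted p = 0.00668), at 8.72 in mural cells, 25.1 in endothelial cells and 0.874 in fibroblasts. Without either fresh library, with the BD libraries grouped, Fabp4 and Hspa1a kept their sign and lost their calls (adjusted p of 0.502 and 0.544 for storage, 0.193 and 0.128 for Fabp4 in BD 1). The higher ribosomal and mitochondrial transcripts of stored cells, and the higher Notch3 and lower Acta2 of BD 1, were not called as different from what the neighbouring classes did. That does not show that the classes responded alike. For Fabp4 the contrast averages endothelial cells with fibroblasts, which held little of it. Neither Fabp4 value is therefore a difference from endothelium alone. Endothelial cells also held less Fabp4 in BD 1 (25.1) than in both fresh 10x libraries (37.8 and 43.4).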

How the data were processed

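Cells were chosen, and gene lists and tests drawn up, with earlier results of these data known. The authors deposited raw UMI counts per gene and cell, 1 matrix per library; Cell Ranger 3.0.1 and mm10 are named in the submitters' processing notes, while the BD counting program is not given in the sources used here. Drop-seq, also named in the design, was not analysed here. No doublet caller was run. Fibroblasts (Dcn, Lum and Pdgfra), endothelial cells (the 5 genes above) and macrophages (C1qa, C1qb and C1qc) held at least 5 UMIs of their genes and at most 1 of Rgs5.

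Counts were summed per library and class and tested with edgeR 4.0.16 (quasi-likelihood, TMM factors, filterByExpr, Benjamini-Hochberg threshold 0.05) in R 4.3.3, checked on simulated data. DESeq2 1.42.0 was an alternative. The test between classes took the library as a block because both sums come from 1 library. Genes named are, per comparison, the 10 highest and 10 lowest called with at least 50 CPM in 1 group and 1 direction in every library, the most abundant 4 of each list, the 6 markers and the 15 most variable; other genes were named after their values were seen. Summed mural counts of the fresh pair differed by more than sampling noise (chi-square per degree of freedom 1.91 over 7128 genes).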

Additional observations from a re-analysis of the deposited data

Results flagged for a closer look

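The effect of storage differed between mural cells and the mean of endothelial cells and fibroblasts for 2 genes, by the interaction term of edgeR's quasi-likelihood fit. Hspa1a had a log2 difference of differences of 2.38 (SE 0.36, adjusted p = 0.0499). Fabp4 had -2.14 (SE 0.22, adjusted p = 0.00108). The effect of BD 1 against fresh 10x differed for Fabp4 alone, at -2.0 (SE 0.24, adjusted p = 0.00668). Over its alternatives the Hspa1a storage value stayed past the threshold in 7 of 10 fits, with DESeq2 among those that lost it. The Fabp4 storage value stayed past it in 8 of 10, and both kept their sign in all of them. The BD 1 value of Fabp4 stayed past it in 8 of 10. Endothelial cells of BD 1 also held less Fabp4 than fresh 10x ones, so that value is not a difference from endothelium alone.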

How the results depend on the processing

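Over its alternatives the mural share relative to the fresh 10x mean was 0.195 to 0.265 in stored 10x, 0.0895 to 0.128 in BD 1 and 0.0514 to 0.109 in BD 2. The paired fit with the library block is the main one between classes; without the replicate block 1438 genes were called against fibroblasts (2615 with it) and 1417 against endothelial cells (2302 with it). Without it the calls for Tagln, Hes1, Il6st, Il34 and Cd248 against fibroblasts and for Gja4, Gng11, Hes1, Il6st, Mki67, Col4a1 and Epas1 against endothelium were lost. Leaving out 1 library at a time gave 1767 to 2300 and 1632 to 2463 calls. Between conditions, mural sums share only a number, so no paired analysis was possible because stored 10x and BD 1 have 1 library each.

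Storage calls (26) depended on the setting: 1 with DESeq2, 0 with Rgs5 at least 3 (264 at an unadjusted p under 0.05), 102 with Rgs5 at least 10, 15 with at most 20% mitochondrial UMIs, 6 without cells holding UMIs of other classes, 12 with BD 2 grouped with BD 1 and, so grouped, 1 to 5 without 1 fresh library. With RLE factors all 19 calls were higher, against 80.8% of the 26. BD 1 calls (496) were 37 with DESeq2, 190 with Rgs5 at least 3, 178 without cells holding UMIs of other classes and, with BD 2 grouped (435 on its own), 162 to 167 without 1 fresh library. Interaction calls for storage (2) were 1 with DESeq2, 17 with no filter, 4 with BD 2 grouped and, so grouped, 0 to 3 without 1 fresh library. Those for BD 1 (1) were 8 with DESeq2, 3 with RLE factors, 46 with no filter, 13 with Rgs5 at least 3, 2 with at most 20% mitochondrial UMIs, 13 without cells holding UMIs of other classes, 25 with BD 2 grouped and, so grouped, 1 to 6 without 1 fresh library. The cause of these moves was not tested. No named gene reversed; of the fits of named genes, 590 kept their side of the threshold and 10 lost it against fibroblasts, 483 and 21 against endothelial cells, 61 and 78 for storage, and 169 and 36 for BD 1. The storage and BD 1 values rest on 25 and 10 mural cells.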
